A study of Mus musculus with 5 samples.

Results

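The 10 genes described here encode 7 inhibitors of cyclin-dependent kinases (CDKs) and the 3 D-type cyclins. They were chosen by symbol: Cdkn1a, Cdkn1b and Cdkn1c of the Cip/Kip family, Cdkn2a, Cdkn2b, Cdkn2c and Cdkn2d of the INK4 family, and Ccnd1, Ccnd2 and Ccnd3. All 10 were found among the 16992 gene symbols common to the 5 libraries of the series, and 9 of them were abundant enough to be tested. RNA was sequenced from pancreas cells of C57BL/6 mice aged 2 to 4 months, sorted without culture. There were 3 libraries of CD133(high)CD71(low) cells, which the series title describes as enriched for colony-forming progenitors, and 2 libraries of CD133(positive)CD71(negative) cells. Prom1 encodes CD133, the surface protein prominin-1, and Tfrc encodes CD71, the transferrin receptor. Another label field gives the CD133(high)CD71(low) cells as CD133 plus and CD71 plus. The third CD133(high)CD71(low) library carries no number in its title and is called library 3. Nothing in the labels ties a library to its own animal or sort, so that the p-values measure a spread that may be technical.

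D-type cyclins are made in response to growth signals and bind CDK4 and CDK6. The resulting kinases phosphorylate the retinoblastoma protein family, which releases E2F transcription factors and lets a cell pass from G1 into S phase. INK4 proteins bind CDK4 and CDK6 and keep D cyclins off them. Cip/Kip proteins bind cyclin-CDK complexes more broadly, block those that contain CDK2, and help D cyclins assemble with their kinases. Cells at rest commonly hold high Cip/Kip levels, and most cells of the adult pancreas divide rarely.

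Values are RPKM, which divides reads by transcript length in kilobases and by library depth, so that levels of different genes can be compared. The unit was inferred from the deposited values. The depth that the values imply was 32.0, 30.9 and 41.9 M reads in the CD133(high)CD71(low) libraries and 25.5 and 19.8 M reads in the CD133(positive)CD71(negative) libraries. Library 3 was deposited with other gene models (22522 symbols, against 18618 in each of the 4 numbered libraries) and its correlation over genes (Pearson r) was 0.957 with library 1 and 0.961 with library 2 of its own group, which correlated with each other at 0.996. Results are therefore given with and without it where it matters. Prom1 measured 93.6 ± 34.4 RPKM in CD133(high)CD71(low) cells and 47.3 ± 2.14 in CD133(positive)CD71(negative) cells, and Tfrc 8.13 ± 3.61 in CD133(high)CD71(low) and 4.18 ± 0.26 in CD133(positive)CD71(negative) cells (SD, n = 3 and 2). Both lay higher in every CD133(high)CD71(low) library, although neither passed the test over 5 libraries (limma adjusted p = 0.0909 and 0.151).

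Cdkn1a was the one member that differed between the populations past the threshold, and it was lower in CD133(high)CD71(low) cells. Of the 9 members tested with limma on log2(RPKM + 1), 1 fell and 0 rose at a Benjamini-Hochberg adjusted p under 0.05. Among all 11769 genes tested, 7.22% were called lower and 6.25% higher. At an unadjusted p under 0.05, 2 members were lower and 0 higher, beside 9.18% of all genes lower and 27.5% higher (36.7% in either direction). The 1 of 9 members called lower is near that background share, so that the count is a statement on Cdkn1a and not on the family. The groups did not overlap in 3 of the 9 members, with Cdkn1a and Cdkn1c lower and Cdkn2c higher in CD133(high)CD71(low) cells. Over all genes tested they did not overlap in 70.2% (58.2% higher and 12% lower).

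**Figure D1:**
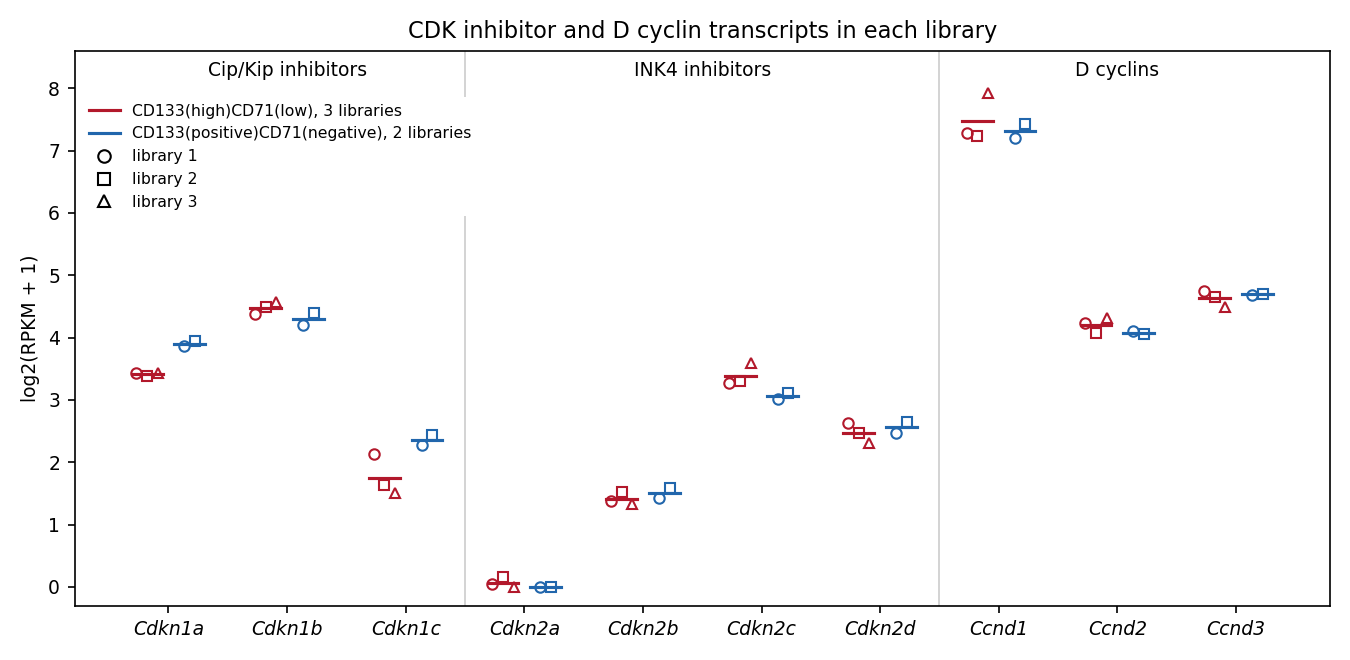
Level of each member, as log2(RPKM + 1), in the 3 CD133(high)CD71(low) libraries (red) and the 2 CD133(positive)CD71(negative) libraries (blue). Horizontal bars are group means and marker shapes give the library. The red Cdkn1a points (9.42 to 9.82 RPKM) lie together below both blue points (13.6 and 14.3 RPKM), Ccnd1 is far above every other member, and Cdkn2a lies at or next to 0.

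The order of the levels was the same in both populations, from Ccnd1 through Ccnd3, Cdkn1b, Ccnd2, Cdkn1a, Cdkn2c, Cdkn2d, Cdkn1c and Cdkn2b to Cdkn2a. In CD133(positive)CD71(negative) cells no neighbours in this order overlapped between libraries. In CD133(high)CD71(low) cells the ranges of Ccnd3 and Cdkn1b, of Cdkn1a and Cdkn2c, and of Cdkn1c and Cdkn2b overlapped.

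Among the Cip/Kip inhibitors, Cdkn1a encodes p21, which is induced by DNA damage and other stresses and halts the cycle. The gene lies on chromosome 17 (29090976 to 29100727, plus strand, GRCm38, the assembly also called mm10). It measured 9.79, 9.42 and 9.82 RPKM in the CD133(high)CD71(low) libraries, against 13.6 and 14.3 RPKM in the CD133(positive)CD71(negative) libraries. The 3 CD133(high)CD71(low) libraries, library 3 included, lay close together and all below the other population. The mean level was 0.692 times that of CD133(positive)CD71(negative) cells (9.68 ± 0.23 RPKM in CD133(high)CD71(low) and 14.0 ± 0.48 RPKM in CD133(positive)CD71(negative) cells, SD, n = 3 and 2). On the log2(RPKM + 1) scale the fold change was -0.49 (SE 0.11, 95% confidence interval -0.76 to -0.21, limma adjusted p = 0.0435). Within a library, a rank that no scaling can alter, Cdkn1a stood at percentile 71.6, 70.8 and 65.6 of the common genes in CD133(high)CD71(low) cells and at 82.9 and 82.5 in CD133(positive)CD71(negative) cells. With the length of the longest annotated transcript, these levels correspond to about 590 to 856 reads per library, for which counting error alone is 3.42% to 4.12%.

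The call on Cdkn1a is close to the threshold. It was kept without library 3 (log2 fold change -0.50, limma adjusted p = 0.00139) and under each scaling, pseudocount and filter tried, and was lost when any 1 of the other 4 libraries was left out. The limma adjusted p was 0.143 or 0.148 when CD133(high)CD71(low) library 1 or 2 was the one left out, and 0.333 or 0.281 when it was CD133(positive)CD71(negative) library 1 or 2. The log2 fold change in these 4 fits stayed between -0.52 and -0.46.

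Cdkn1c (chromosome 7, 143458339 to 143461050, minus strand) encodes p57, an imprinted inhibitor that acts in development. It measured 3.37, 2.09 and 1.84 RPKM in CD133(high)CD71(low) libraries 1 to 3, against 3.84 and 4.44 RPKM in the CD133(positive)CD71(negative) libraries. Every CD133(high)CD71(low) library was below both others, and library 1 lay closest to them. The log2 fold change was -0.61 (SE 0.22, 95% confidence interval -1.15 to -0.06), which did not pass over 5 libraries (limma adjusted p = 0.114). Without library 3 it passed, at -0.48 (limma adjusted p = 0.026), against a background in which 12.2% of 11695 genes were called lower and 40.9% higher. An antisense gene, Gm44732, overlaps Cdkn1c, and whether the authors counted by strand is not given in the sources used here.

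Cdkn1b (chromosome 6, 134920401 to 134925513, plus strand) encodes p27, the inhibitor whose level is classically high in resting cells and falls as they enter the cycle, largely by degradation of the protein. It was the most abundant inhibitor in every library, at 19.8, 21.6 and 22.7 RPKM in CD133(high)CD71(low) cells and 17.3 and 20.0 RPKM in CD133(positive)CD71(negative) cells. The groups overlapped and the gene did not pass (log2 fold change 0.19, 95% confidence interval -0.13 to 0.51, limma adjusted p = 0.3). Under median-of-ratios scaling the sign turned (-0.14, limma adjusted p = 0.504).

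Among the INK4 inhibitors none passed, and at an unadjusted p under 0.05 there were 0 of the 3 tested. Cdkn2c (chromosome 4, 109660876 to 109667189, minus strand), encoding p18, was the most abundant of them. It measured 8.62, 8.87 and 11 RPKM in CD133(high)CD71(low) cells and 7.06 and 7.61 RPKM in CD133(positive)CD71(negative) cells. All 3 CD133(high)CD71(low) libraries were higher, library 3 most, and the log2 fold change was 0.33 (95% confidence interval -0.04 to 0.70, limma adjusted p = 0.166). The median of all genes tested was 0.31, and with median-of-ratios scaling Cdkn2c was at 0.02.

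Cdkn2d (chromosome 9, 21288410 to 21291407, minus strand), encoding p19 of the INK4 family, measured 5.17, 4.51 and 3.98 RPKM in CD133(high)CD71(low) cells and 4.54 and 5.28 RPKM in CD133(positive)CD71(negative) cells. Cdkn2b (chromosome 4, 89306299 to 89311039, minus strand), encoding p15, a target of TGF-beta signalling, measured 1.61, 1.88 and 1.52 RPKM in CD133(high)CD71(low) cells and 1.69 and 1.99 RPKM in CD133(positive)CD71(negative) cells. Both genes overlapped between the groups, with log2 fold changes of -0.09 for each and 95% confidence intervals of -0.47 to 0.28 for Cdkn2d and -0.41 to 0.23 for Cdkn2b (limma adjusted p = 0.625 and 0.59).

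Cdkn2a (chromosome 4, 89274471 to 89294653, minus strand) encodes p16 and, in another reading frame, Arf. The locus is usually silent in young tissue and its transcripts accumulate with age. It was listed at 0.0336, 0.114 and 0 RPKM in CD133(high)CD71(low) libraries 1 to 3 and at 0 in both CD133(positive)CD71(negative) libraries. The values above 0 correspond to about 1 and 3 reads, and it was too low to be tested. A count of 0 allows up to 3 reads, or 0.08 RPKM in CD133(high)CD71(low) library 3 and 0.131 and 0.169 RPKM in CD133(positive)CD71(negative) libraries 1 and 2, so that no difference was detectable at this depth. These limits cover counting error only. The 2 transcripts start 12427 bases apart (89294619 and 89282192, RefSeq on GRCm38.p6), and the deposited value per symbol does not separate p16 from Arf.

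The D cyclins together carried far more RNA than the inhibitors, most of it from Ccnd1, and none of the 3 passed the test (0 at an unadjusted p under 0.05). Their summed level was 198, 189.2 and 281.3 RPKM in CD133(high)CD71(low) cells and 187.7 and 211.6 RPKM in CD133(positive)CD71(negative) cells. The 7 inhibitors together summed to 48.4, 48.5 and 50.9 RPKM in CD133(high)CD71(low) cells and to 48.1 and 53.7 RPKM in CD133(positive)CD71(negative) cells. The inhibitor sums overlapped between the populations although Cdkn1a differed within them.

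Ccnd1 (chromosome 7, 144929931 to 144939925, minus strand) encodes cyclin D1, the D cyclin most often driven by Ras, Wnt and adhesion signals in epithelia. It measured 154.3, 149.3 and 240.7 RPKM in CD133(high)CD71(low) libraries 1 to 3 and 146.9 and 170.8 RPKM in CD133(positive)CD71(negative) libraries, above at least 98.8% of common genes in every library. Libraries 1 and 2 lay within the range of CD133(positive)CD71(negative) cells and library 3 alone was above it. The log2 fold change was 0.16 (95% confidence interval -0.46 to 0.78, limma adjusted p = 0.608). Without library 3 it was -0.06 (limma adjusted p = 0.578), and without library 3 and with median-of-ratios scaling Ccnd1 was called lower, at -0.29 (limma adjusted p = 0.022). A direction for Ccnd1 is therefore not given by these data.

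Ccnd2 (chromosome 6, 127125162 to 127152193, minus strand), encoding cyclin D2, measured 17.8, 15.8 and 19.0 RPKM in CD133(high)CD71(low) cells and 16.1 and 15.7 RPKM in CD133(positive)CD71(negative) cells. Ccnd3 (chromosome 17, 47505051 to 47599691, plus strand), encoding cyclin D3, measured 25.9, 24.1 and 21.6 RPKM in CD133(high)CD71(low) cells and 24.7 and 25.1 RPKM in CD133(positive)CD71(negative) cells. The groups overlapped for both genes, and the log2 fold changes were 0.13 (95% confidence interval -0.19 to 0.44, limma adjusted p = 0.438) for Ccnd2 and -0.06 (-0.37 to 0.25, limma adjusted p = 0.695) for Ccnd3. Under median-of-ratios scaling Ccnd2 turned to -0.20 (limma adjusted p = 0.353), and without library 3 Ccnd3 was at 0.01. Ccnd1, Ccnd2 and Ccnd3 each overlap genes on the other strand (LTO1, Gm43126 and 9330179D12Rik, and Bysl). The table of library 3 also lists a Ccnd3 pseudogene, Ccnd3-ps, at 4.76 RPKM, which is not a row of the numbered tables and may share reads with Ccnd3.

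**Figure D2:**
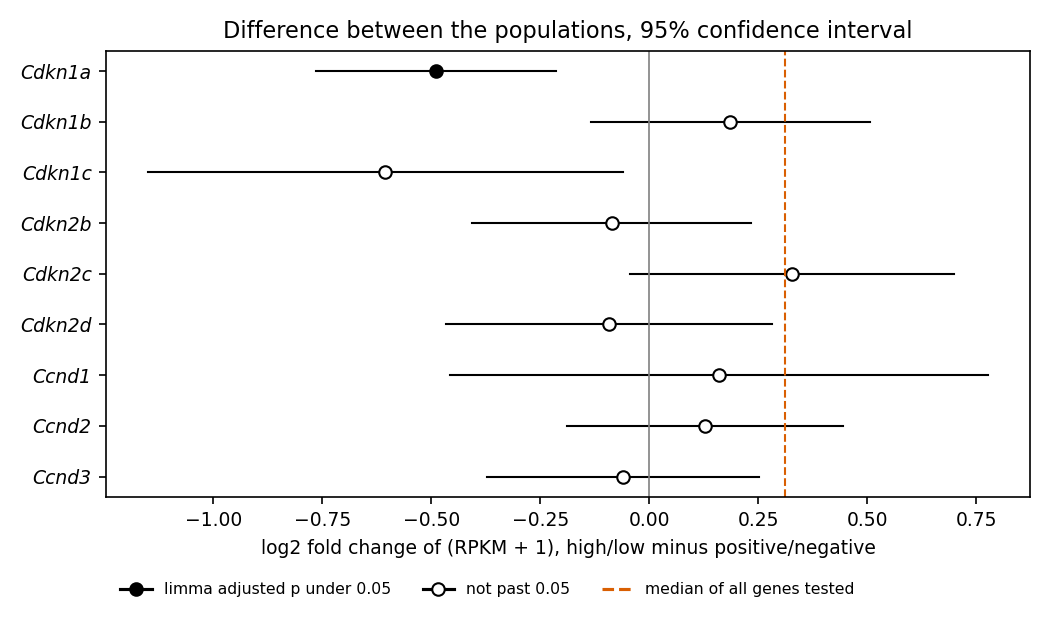
Log2 fold change of each tested member on the log2(RPKM + 1) scale, positive where CD133(high)CD71(low) cells were higher than CD133(positive)CD71(negative) cells. Bars are 95% confidence intervals from limma, the filled point passed an adjusted p of 0.05, and the dashed line is the median of all 11769 genes tested (0.31). Only Cdkn1a is filled, Cdkn1c lies lower (-0.61) with a wider interval, and 8 of 9 points lie left of the dashed line.

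Genes in general were measured higher in CD133(high)CD71(low) cells, with a median log2 fold change of 0.31 over all genes tested, and this shift depends on scaling: it was 0.02 after median-of-ratios scaling. Relative to it, 8 of the 9 members were lower, Cdkn2c being the exception. The median over the 9 members was -0.06. After median-of-ratios scaling it was -0.30, and 1 of 9 members, Cdkn2c, stayed above 0. Set against the median of all genes, Cdkn1a was at -0.80 and Cdkn1c at -0.92, and 9.42% and 8.41% of all genes had a lower log2 fold change. These ranks are a description over genes of these libraries and not a test of the members.

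**Figure D3:**
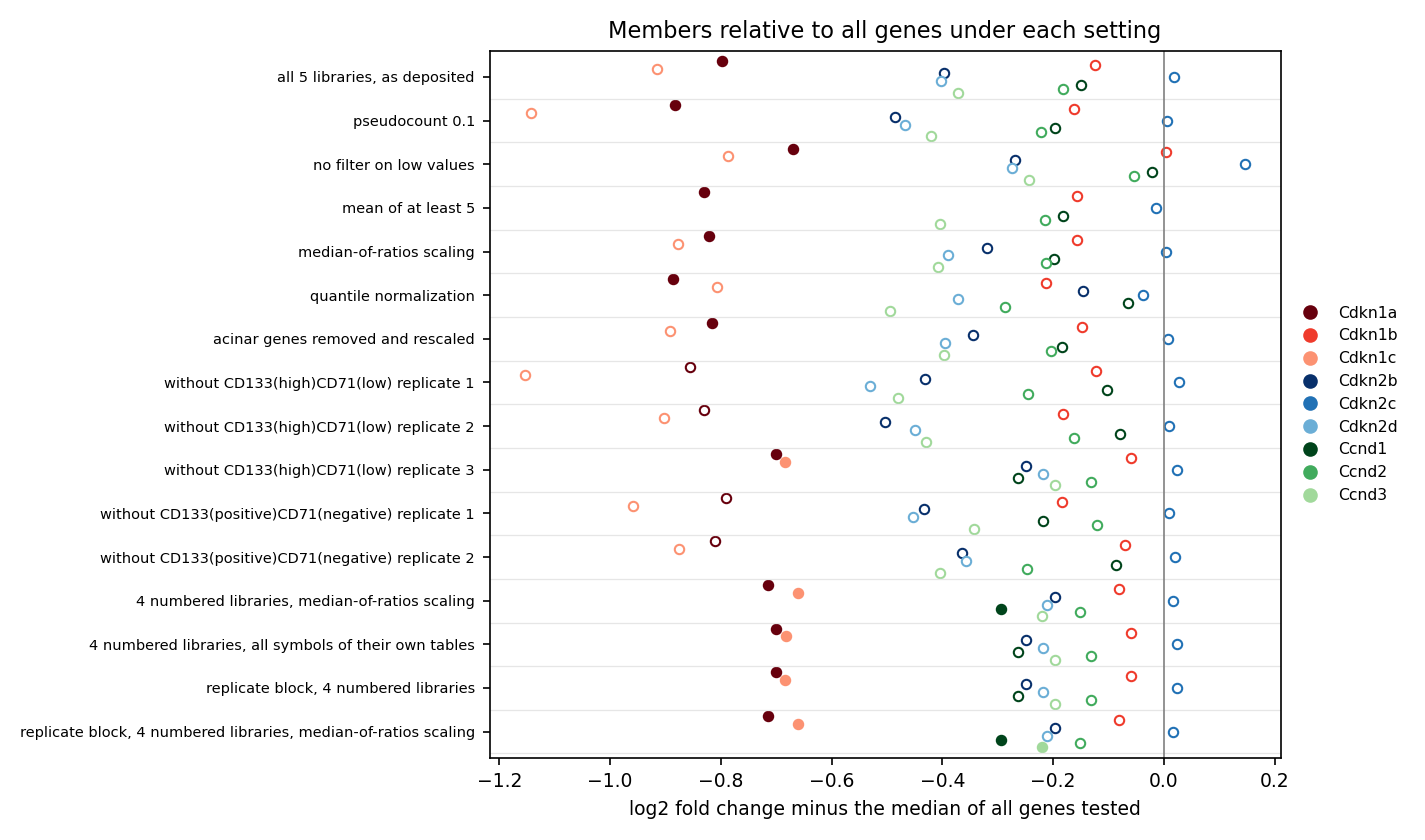
Log2 fold change of each tested member minus the median of all genes tested, in the analysis of all 5 libraries as deposited and under each of 15 alternatives (rows). Filled points passed a limma adjusted p of 0.05. Cdkn1a stays between -0.89 and -0.67 in every alternative and is filled in 11 of them, Cdkn1c is filled in 5 of the 14 in which it was tested, and Cdkn2c stays within 0.15 of the median.

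Shares within a family are not altered by scaling a library, and those of several inhibitors did not overlap between the populations. Cdkn1a made up 20.2%, 19.4% and 19.3% of the summed RPKM of the 7 inhibitors in CD133(high)CD71(low) cells and 28.4% and 26.7% in CD133(positive)CD71(negative) cells. The share of Cdkn1b was 40.9%, 44.5% and 44.6% in CD133(high)CD71(low) cells and 36% and 37.3% in CD133(positive)CD71(negative) cells. That of Cdkn2c was 17.8%, 18.3% and 21.7% in CD133(high)CD71(low) cells and 14.7% and 14.2% in CD133(positive)CD71(negative) cells. In each case the groups did not overlap and the exact two-sided permutation test gave p = 0.1, the smallest that 3 against 2 libraries allow. The share of Cdkn1c was 6.97%, 4.32% and 3.61% in CD133(high)CD71(low) cells and 7.99% and 8.27% in CD133(positive)CD71(negative) cells (exact permutation p = 0.2). Shares of the same sum are tied, so that a lower Cdkn1a share raises the others, and the RPKM of Cdkn1b overlapped. In RPKM, 70.2% of all genes tested did not overlap. As a family, Cip/Kip genes held 68.1%, 68.3% and 67.5% in CD133(high)CD71(low) cells and 72.4% and 72.3% in CD133(positive)CD71(negative) cells, a difference of -4.36 percentage points (exact permutation p = 0.1). The ratio of Cdkn1a to Cdkn2c was 1.14, 1.06 and 0.891 in CD133(high)CD71(low) cells, where both genes stood at like levels, and 1.93 and 1.88 in CD133(positive)CD71(negative) cells (exact permutation p = 0.1). Cdkn1a was lower and Cdkn2c higher in every CD133(high)CD71(low) library. Their ratio therefore could not overlap, and its p adds nothing to the results of the single genes.

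The makeup of the D cyclins overlapped between the populations. Ccnd1 took 77.9%, 78.9% and 85.6% of their summed RPKM in CD133(high)CD71(low) cells and 78.3% and 80.7% in CD133(positive)CD71(negative) cells (exact permutation p = 0.9). The mean difference of 1.31 percentage points turned to -1.07 without library 3. The ratio of Cdkn1a to Ccnd1, an inhibitor against the cyclin that opens G1, was 0.0634, 0.0631 and 0.0408 in CD133(high)CD71(low) cells and 0.0929 and 0.0838 in CD133(positive)CD71(negative) cells (exact permutation p = 0.1). The ratio of Cdkn1b to Ccnd1 overlapped, at 0.128, 0.144 and 0.0942 in CD133(high)CD71(low) cells and 0.118 and 0.117 in CD133(positive)CD71(negative) cells.

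**Figure D4:**
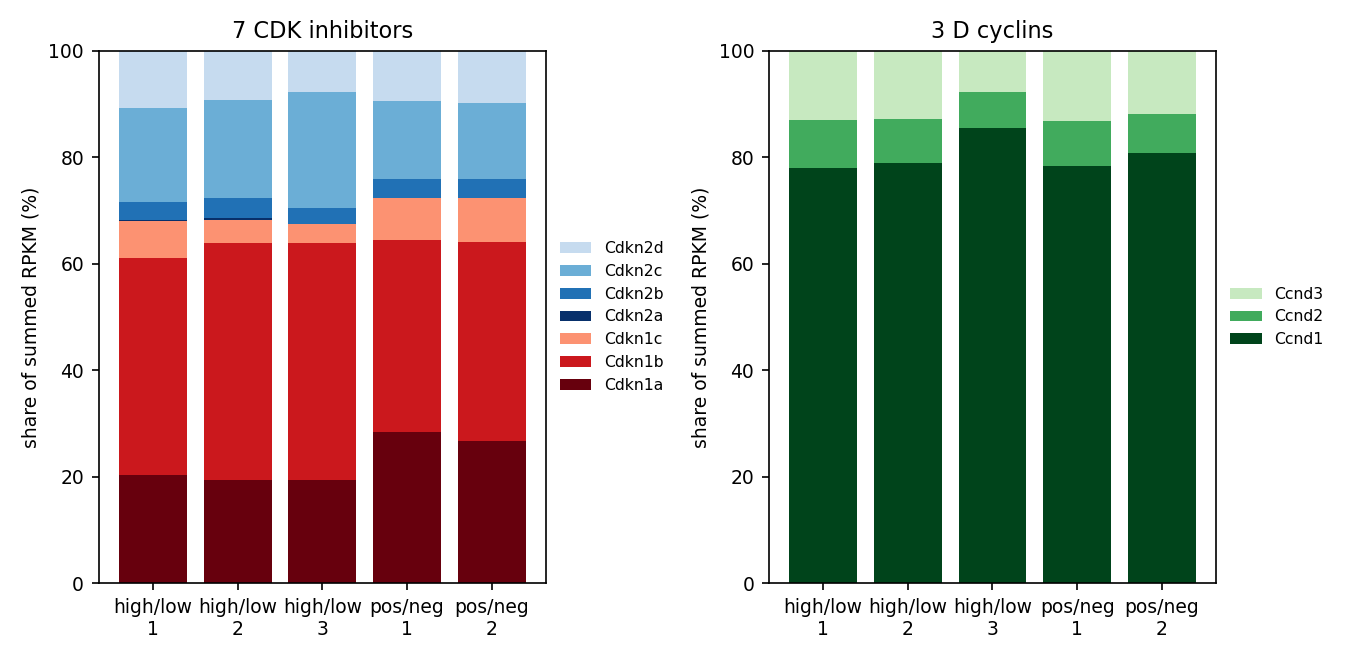
Share of each gene in the summed RPKM of the 7 CDK inhibitors (left) and of the 3 D cyclins (right), one bar per library, with high/low for CD133(high)CD71(low) and pos/neg for CD133(positive)CD71(negative). The dark red Cdkn1a segment is 19.3% to 20.2% of the inhibitors in the CD133(high)CD71(low) bars and 26.7% and 28.4% in the other 2, while Ccnd1 is at least 77.9% of the D cyclins in all 5.

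The 2 populations differed in the transcripts of other cell types, and in bulk RNA fewer cells of a type and less RNA per cell cannot be told apart. The summed level of 16 leukocyte markers was 34.1 to 74.3 RPKM in CD133(high)CD71(low) libraries and 1817 and 1845 RPKM in CD133(positive)CD71(negative) libraries, with all 16 markers lower in every CD133(high)CD71(low) library. The 15 endothelial markers summed to 252.2, 155.9 and 85.9 RPKM in CD133(high)CD71(low) libraries 1 to 3 and to 916.5 and 855.3 RPKM in CD133(positive)CD71(negative) libraries, and all 15 were lower. Of 15 mesenchymal and stellate markers 13 were lower (165.5 to 182.1 RPKM in CD133(high)CD71(low) and 391.8 and 408.9 RPKM in CD133(positive)CD71(negative) libraries). Of 15 duct markers 14 were higher (5176 to 7376 RPKM in CD133(high)CD71(low) and 3581 and 3817 RPKM in CD133(positive)CD71(negative) libraries). Prom1, the gene of a sort marker, is among them. Spp1 was the largest part of each sum (2895 to 4846 RPKM in CD133(high)CD71(low) libraries) and did not pass (limma adjusted p = 0.227). Over all genes tested, 58.2% were higher and 12% lower in every CD133(high)CD71(low) library. The counts of each list are to be read against these shares. Acinar genes made up 56.8%, 57.4% and 43.2% of the summed RPKM of CD133(high)CD71(low) libraries and 64.7% and 61.4% of that of CD133(positive)CD71(negative) libraries, and 28 of 41 were lower and 1 higher in every CD133(high)CD71(low) library. Of 17 endocrine markers 10 were lower and 2 higher, with sums that overlapped (620.5 to 1873 RPKM in CD133(high)CD71(low) and 1707 and 1882 RPKM in CD133(positive)CD71(negative) libraries). Of 7 erythroid genes found 4 were higher, with sums of 122.8, 118.3 and 32.5 RPKM in CD133(high)CD71(low) libraries and 11.9 and 12.1 RPKM in CD133(positive)CD71(negative) libraries. Of 10 Schwann cell markers 8 were lower and 2 higher, and their sums overlapped (46.2 to 53.7 RPKM in CD133(high)CD71(low) and 49.3 and 49.4 RPKM in CD133(positive)CD71(negative) libraries). Of all these lists, only the Schwann list had a marker, 1 of 10, at 0 in any CD133(high)CD71(low) library. Within CD133(high)CD71(low) cells Cdkn1c was highest in library 1 and lowest in library 3. The leukocyte (74.3, 62.9 and 34.1 RPKM in libraries 1 to 3), endothelial and erythroid sums took the same order. An order of 3 libraries does not tell these lists apart. Cdkn1a was alike in all 3 libraries. The part of these cell types in the levels of Cdkn1a and Cdkn1c was not tested.

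Lists of other cell cycle, growth signal and stress genes were tested as well. Of their 125 tested members 10 rose (8%, beside 6.25% of all genes) and 2 fell (1.6%, beside 7.22%). Among the 10 that rose, 6 were from the list of S phase and mitosis genes (Ccnb2, Ccna2, Ube2c, Mki67, Cdc20 and Birc5). The Mcm genes, Pcna, Rrm2 and Tyms of that list did not pass. The median log2 fold change of the 125 was 0.33 beside 0.31 over all genes. These counts depend on library 3 and scaling, as do those over all genes. Without library 3, 53 of 127 rose (41.7%) and 11 fell (8.66%), where 40.9% of all genes rose and 12.2% fell. With median-of-ratios scaling 1 of 126 rose (0.794%) and 7 fell (5.56%), where 1.93% of all genes rose and 9.68% fell. Counts of single lists in these fits are to be read against the same shares.

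Among CDKs that act in G1 and their regulators, 0 of 8 tested genes passed (limma; 5 higher and 0 lower at an unadjusted p under 0.05), and the 8 were all above 0 in log2 fold change. The E cyclin genes of this list, Ccne1 and Ccne2, were below the minimum mean and were not tested. Without library 3, 6 of the 8 rose (75%, beside 40.9% of all genes) and 0 fell, and with median-of-ratios scaling 0 passed, with library 3 or without it (limma; 1 and 4 higher and 0 lower at an unadjusted p under 0.05). Cdk4, the main kinase partner of cyclin D1, measured 53.5, 52.7 and 83.8 RPKM in CD133(high)CD71(low) cells and 36.4 and 41.7 RPKM in CD133(positive)CD71(negative) cells (log2 fold change 0.65, limma adjusted p = 0.114). Of the retinoblastoma family, E2F and DREAM complex genes 0 of 15 passed in limma (3 higher and 0 lower at an unadjusted p under 0.05), and without library 3, 6 of 16 rose and 1 fell. The most abundant, Rbbp4, a histone-binding subunit of DREAM, measured 18.3, 19.7 and 41 RPKM in CD133(high)CD71(low) cells and 15.2 and 15 RPKM in CD133(positive)CD71(negative) cells (limma adjusted p = 0.211).

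Of 17 genes acting in turnover of p27 and D cyclins 1 rose. This was Cryab, a small heat shock protein that works with the ubiquitin ligase subunit Fbxo4 on cyclin D1, at 94.4, 86.0 and 86.4 RPKM in CD133(high)CD71(low) cells and 49.1 and 51.5 RPKM in CD133(positive)CD71(negative) cells (log2 fold change 0.81, limma adjusted p = 0.0116). Of 17 quiescence and FoxO genes 3 rose and 0 fell (limma; 4 higher and 2 lower at an unadjusted p under 0.05), and 13 were above 0 in log2 fold change. Without library 3, 8 rose (47.1%, beside 40.9% of all genes) and 2 fell. The 3 that rose over all 5 libraries included Foxo3, a transcription factor known to induce Cdkn1b, at 18.1 ± 1.69 RPKM in CD133(high)CD71(low) cells and 10.6 ± 0.38 in CD133(positive)CD71(negative) cells (SD, n = 3 and 2; limma adjusted p = 0.0226), and Gas6, a ligand of TAM receptors first found in growth-arrested cells, at 386.3 ± 23.4 RPKM in CD133(high)CD71(low) cells and 227 ± 19.3 in CD133(positive)CD71(negative) cells (limma adjusted p = 0.026). Foxo1, of the same family as Foxo3, went the other way and did not pass (limma adjusted p = 0.0794). It measured 5.51 ± 0.42 RPKM in CD133(high)CD71(low) cells and 7.68 ± 0.08 in CD133(positive)CD71(negative) cells. Btg2 and Klf9 were also lower in every CD133(high)CD71(low) library and did not pass. With median-of-ratios scaling 0 of the turnover genes passed (limma; 2 higher and 0 lower at an unadjusted p under 0.05), and 0 of the quiescence and FoxO genes rose and 2 fell.

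Of 17 tested genes that DNA damage is known to induce, as it does Cdkn1a, 0 rose and 1 fell (limma; 2 higher and 1 lower at an unadjusted p under 0.05), with a median log2 fold change of 0.15. The 1 was Gadd45g, a stress sensor, at 5.0, 4.38 and 2.76 RPKM in CD133(high)CD71(low) cells and 9.29 and 9.15 RPKM in CD133(positive)CD71(negative) cells (log2 fold change -1.05, limma adjusted p = 0.0381). Gadd45a (0.50) and Gadd45b (0.30) of the same family were higher in every CD133(high)CD71(low) library and did not pass (limma adjusted p = 0.0935 and 0.169). Of the 17 genes, 11 were above 0 in log2 fold change. Without library 3, 3 of 18 rose and 2 fell. Of 19 genes that respond to cell dissociation 0 passed in limma (4 higher and 3 lower at an unadjusted p under 0.05), their most abundant member being the heat shock gene Hspa1b (294 ± 46.5 RPKM in CD133(high)CD71(low) cells and 202.8 ± 41 in CD133(positive)CD71(negative) cells, SD, n = 3 and 2). Without library 3, 7 of the dissociation genes rose and 3 fell, with median-of-ratios scaling 0 rose and 2 fell, and with both changes 0 rose and 7 fell, in a fit where 18.1% of all genes fell. Of 17 growth signal genes upstream of D cyclins 1 fell and 0 rose (limma; 4 higher and 1 lower at an unadjusted p under 0.05), and 13 were above 0 in log2 fold change. The 1 that fell was Spry4, a feedback inhibitor of Ras signalling, at 0.715, 0.579 and 0.561 RPKM in CD133(high)CD71(low) cells and 3.34 and 2.43 RPKM in CD133(positive)CD71(negative) cells (log2 fold change -1.25, limma adjusted p = 0.00627). Spry4 reached the minimum mean through CD133(positive)CD71(negative) cells. Its relative Spry2 was higher in every CD133(high)CD71(low) library and did not pass (log2 fold change 0.35, limma adjusted p = 0.15). Without library 3, 7 of the growth signal genes rose (41.2%) and 3 fell, and 8 of the turnover genes rose (47.1%) and 0 fell, beside 40.9% of all genes that rose and 12.2% that fell.

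Of 22 listed genes of S phase and mitosis, which act after the G1 decision, 17 were abundant enough to be tested. Of the 17, 6 rose (35.3%, beside 6.25% of all genes) and 0 fell. The median log2 fold change of the 17 was 0.65, beside 0.31 over all genes. Ccnb2 (1.95 ± 0.46 RPKM in CD133(high)CD71(low) cells and 0.46 ± 0.14 in CD133(positive)CD71(negative) cells) and Ccna2 (1.89 ± 0.38 RPKM in CD133(high)CD71(low) cells and 0.607 ± 0.026 in CD133(positive)CD71(negative) cells) had the smallest adjusted p of them (limma, 0.0209 and 0.0228). Mki67, a marker of cycling cells, stood at 1.97 ± 0.13 RPKM in CD133(high)CD71(low) cells and 0.883 ± 0.14 in CD133(positive)CD71(negative) cells (SD, n = 3 and 2; limma adjusted p = 0.0238). Ccnb2, Ccna2, Ube2c, Mki67 and Birc5 had means below 1 RPKM in CD133(positive)CD71(negative) cells. They reached the minimum through CD133(high)CD71(low) cells, so that the share that rose depends in part on the filter. Over all 5 libraries the DNA replication genes of the list (Mcm2 to Mcm7, Pcna, Rrm2 and Tyms) did not pass. Their log2 fold changes ran from -0.31 (Mcm3) to 0.76 (Tyms). With median-of-ratios scaling 1 of the S phase and mitosis genes rose (5.88%, beside 1.93% of all genes) and 0 fell (limma; 9 higher and 1 lower at an unadjusted p under 0.05). Without library 3 there were 9 that rose (52.9%, beside 40.9% of all genes) and 1 that fell. With both changes 7 of 16 rose (43.75%, beside 12.3% of all genes) and 1 fell (6.25%, beside 18.1%).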

How the data were processed

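Each library came as a table of gene symbols with a single value each, made by the authors with Partek on mm10, per the submitters' processing notes. No source used here gives the aligner, the annotation or the versions. The deposited values are taken as RPKM, which no label states and which cannot be told from FPKM: multiplied by transcript length, 54.0% to 63.9% of values below 0.5 were within 0.05 of a whole read count (10.0% by chance), which gave the depths but was too few to recover counts. One row of library 3 that names no gene was left out, and the 16992 symbols found in every table were kept.

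Genes with a mean of at least 1 were tested as log2(RPKM + 1) with limma 3.58.1 in R 4.3.3 (mean-variance trend, group as sole term) with Benjamini-Hochberg adjustment over all of them. This scale understates changes of low genes. In libraries simulated for the comparison of all 5 (11769 genes) it found 47% of genes changed by 1 on the log2 scale and 82% of those changed by 2, and 4.44% of its calls were false. The simulated errors were independent between genes, and no change below 1 was tried. These rates therefore do not cover the deviation of library 3 over many genes or a change of the size of Cdkn1a. Shares and ratios were compared by exact permutation over libraries. Alternatives varied the pseudocount, the filter, the scaling, the libraries kept and the replicate block. Positions come from GENCODE M21 (GRCm38). The members and lists were chosen with earlier results of these data known. Named genes are all members, Prom1, Tfrc and Mki67, and, per list, up to 2 risen and 2 fallen genes with the smallest adjusted p or else the most abundant gene. Other genes of the lists are named where they bear on how these are read. Figures used Python 3.11.15 and matplotlib 3.10.9.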

Additional observations from a re-analysis of the deposited data

How the results depend on the processing

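The count of members called higher was 0 in limma under every alternative, and Cdkn1a was lower in all 15 (log2 fold change -0.81 to -0.46, limma adjusted p 9.16e-06 to 0.333). Members called lower numbered 0 to 2 when 1 library was left out, 2 in the 4 numbered libraries with all symbols of their own tables, and 3 in these libraries with median-of-ratios scaling. Leaving out 1 library gave 0 to 4785 higher and 154 to 1425 lower genes over all, and 0 to 53 higher and 0 to 11 lower pathway genes. The difference in Ccnd1 share ran from -1.07 (without library 3) to a highest of 2.76 percentage points. With a CD133(positive)CD71(negative) library left out, the lone library is assumed to vary like the other group. With 1 library left out, the log2 fold change of Ccnd1 ran from -0.061 to 0.28 and that of Ccnd3 from -0.12 to 0.0059. The cause of these shifts was not tested.

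As deposited, 735 genes were higher and 850 lower over all, with 10 and 2 pathway genes. Under median-of-ratios scaling 227 genes were higher, and 1 pathway gene was higher and 7 lower. With acinar genes removed the counts were 401, 6 and 7. A mean of at least 5 gave 315 lower genes, and 3 higher and 1 lower pathway genes, with fewer genes tested. No filter gave 1729 lower genes and 8 lower pathway genes, and quantile normalization 6 lower pathway genes. The numbered libraries with all their symbols gave 4780 higher and 1431 lower genes and 53 and 11 pathway genes, and with median-of-ratios scaling 1446 and 2122 genes and 14 and 23 pathway genes.

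The replicate numbers do not pair the libraries by any label, and same-numbered libraries did not deviate together (r = -0.02 across genes). The 2 pairs are mirror images about the group means and give the same value, so that they are a single comparison. With the replicate number as a block the 4 numbered libraries gave 2 lower members, 5275 higher and 1543 lower genes, and 61 and 12 pathway genes. With the block and median-of-ratios scaling they gave 4 lower members (Cdkn1a, Cdkn1c, Ccnd1 and Ccnd3), 1657 and 2308 genes, and 24 and 25 pathway genes.

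Signs of members that did not pass over 5 libraries turned as follows. Cdkn1b was at -0.14 with median-of-ratios scaling, -0.088 with quantile normalization, -0.038 with acinar genes removed, and -0.078 under median-of-ratios scaling of the numbered ones, with or without the block. Ccnd2 was at -0.20, -0.16, -0.094 and -0.15 in the same settings. Ccnd1 was at -0.18 with median-of-ratios scaling, -0.074 with acinar genes removed, -0.061 in the numbered libraries with any gene set or the block, and -0.29 there with median-of-ratios scaling. Ccnd3 was at 0.0059 in the numbered libraries with any gene set or the block.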
